A study of Mus musculus with 12 samples.

Results

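The B cell genes described here are 31 genes known for their use by B lymphocytes, covering the signalling chains of the antigen receptor, surface co-receptors and inhibitors, receptors for survival and innate signals, transcription factors and antigen presentation. The rule took the array's transcript clusters, each a set of probes summarized to 1 value, whose annotation named exactly 1 of these genes. It found 1 cluster for each of 30 genes, of 23410 clusters with a gene symbol. Cd38 had no such cluster and was not analysed here. The rule itself used no measured value.

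The left lungs of 12 mice were profiled, each on its own Affymetrix MoGene 1.0ST v1 array, 5 days after intratracheal administration of 30 µL PBS with or without 0.075 U bleomycin, a drug that injures the lung and leads to fibrosis. The 4 groups of 3 mice were Fra-1+/+ with PBS (WTC), Fra-1+/+ with bleomycin (WTT), Fra-1∆/∆ with PBS (KOC) and Fra-1∆/∆ with bleomycin (KOT), and a mouse is named by its group and animal number. Fra-1, encoded by Fosl1, is a subunit of the transcription factor AP-1. Fra-1∆/∆ mice carried a floxed Fra-1 allele and the Meox2 (Sox2)-Cre transgene, which acts in the embryo and not in extra-embryonic tissue, whereas Fra-1+/+ mice carried the same floxed allele without Cre. For both genotypes the labels give a C57/129S background, which the methods call mixed, and an age of 2 months. The methods give a somewhat older range of ages.

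Mature B cells display an immunoglobulin receptor whose signal passes through Cd79a and Cd79b to kinases and adaptors such as Blk, Btk, Blnk and Plcg2. Their identity is maintained by the transcription factors Ebf1 and Pax5, and mature B cells also express Fcer2a, Cr2 and Ms4a1. In the lung they lie in the blood, in the tissue and in lymphoid clusters that form after injury. In RNA from whole lung, fewer B cells, less RNA per B cell and more RNA from other cells cannot be told apart.

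All values are the deposited log2 values, with array medians between 7.14 and 7.22. Fosl1 was 6.37, 6.76 and 6.86 in WTC, 6.68, 6.26 and 6.56 in KOC, 7.81, 8.19 and 8.32 in WTT, and 7.33, 7.32 and 7.28 in KOT, so that it rose with bleomycin in both genotypes and the PBS groups overlapped. Whether its probes lie in the deleted part is not given in the sources used here, so Fosl1 does not check the genotype. The labels give female mice, but Xist lay between 4.47 and 4.94 and 3 Y-linked genes between 7.66 and 8.93, which does not match female sex in any of the 12 arrays. All 6 Fra-1∆/∆ mice and WTC 76 have animal numbers under 100 and the other 5 Fra-1+/+ mice have higher ones, so that animal number and genotype cannot be told apart with bleomycin.

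The 30 genes rose and fell together from mouse to mouse. Of the mice given PBS, WTC 76 had the highest value of its group in 29 of the 30 genes, against 34.5% of all clusters. WTC 157 had the lowest in 30, against 31.5%. KOC 67 was the highest of its group in 30 genes, against 33.9%, and KOC 53 the lowest in 29, against 28.5%. Among the mice given bleomycin, KOT 72 was the highest of its group in 27 genes, against 24.5%. The order was less shared in WTT, where WTT 160 was highest in 19 genes, against 42.5% of all clusters, and WTT 161 in 9. Ms4a1, which encodes the surface protein CD20, shows the size of this spread. It was 9.89 in WTC 76, 7.63 in WTC 157 and 8.75 in WTC 158, a 4.77-fold range among mice of 1 group. In KOC it ranged 3.25-fold, in WTT 2.04-fold and in KOT 2.13-fold.

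Averaged over the 30 genes, and as a log2 deviation from each gene's mean over the 12 mice, WTC 76, WTC 157 and WTC 158 lay at 0.69, -0.49 and 0.16. The KOC mice 53, 55 and 67 lay at -0.32, 0.00 and 0.71. The WTT mice 160, 161 and 164 lay at -0.23, -0.50 and -0.49, and the KOT mice 72, 80 and 81 at 0.51, -0.10 and 0.06. WTT was thus the lowest group, at -0.41 ± 0.15 (SD, n = 3 mice), but WTC 157 lay within its range. The other groups averaged 0.12 ± 0.59 (WTC), 0.13 ± 0.52 (KOC) and 0.16 ± 0.32 (KOT) with n = 3 mice each and overlapped one another. Each KOT mouse lay above each WTT mouse.

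**Figure D1:**
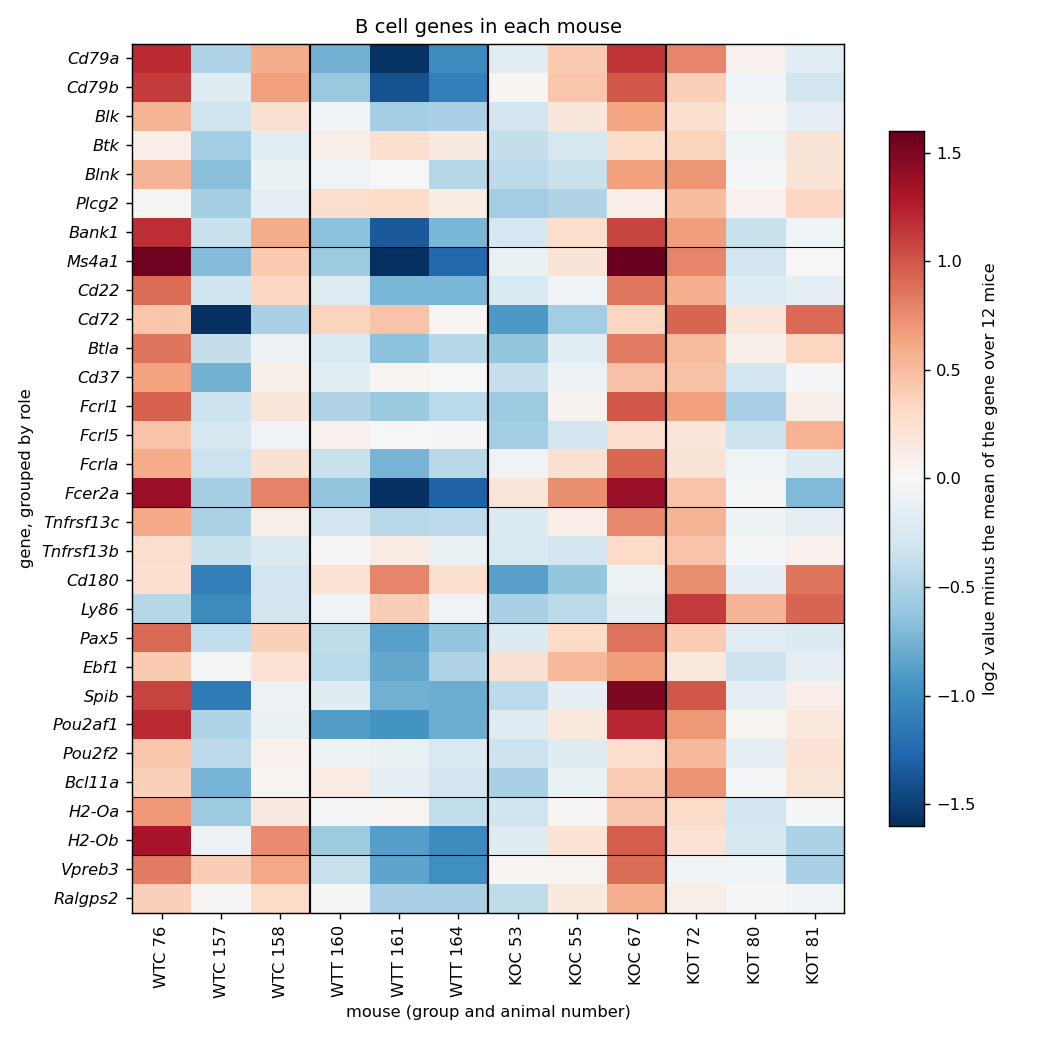
Each row is 1 of the 30 B cell genes, grouped by role, and each column is 1 mouse; colour gives the log2 value minus the mean of the gene over the 12 mice, and the strongest values are drawn at the end of the scale. Columns rather than single genes carry the pattern, with WTC 76, KOC 67 and KOT 72 red and WTC 157 and the 3 WTT mice largely blue, while Cd72, Cd180, Ly86, Plcg2 and Btk depart from it in the WTT mice.

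Within groups the genes largely kept this common order. After subtraction of the group means, the Pearson correlation of 2 members over the 12 mice averaged 0.83, ranged from 0.27 to 0.99, and was above 0.5 in 423 of 435 pairs, whereas over all pairs of clusters it averaged 0.01. These correlations are a description over 12 mice that share arrays and groups. Spib, a B cell transcription factor of the Ets family, had the highest mean correlation with the other members, 0.90, followed by Tnfrsf13c and Bcl11a at 0.89 each. Ly86 had the lowest, 0.62, and Vpreb3 was next at 0.67.

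The members were also among the most variable genes of the arrays. Their within-group SD had a median of 0.47, against 0.13 over all clusters, and 23 of the 30 lay in the top 5% of clusters and 29 in the top 10%. The exception was Ebf1, with the smallest SD among them, 0.23. Spib had the largest, 0.83, and Ms4a1 came next with 0.82. Members therefore had a median SE of 0.32 for a difference between groups, against 0.10 for all clusters. A difference had to be larger here than in most genes to pass a test that uses the spread of each gene.

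In Fra-1+/+ lungs, bleomycin lowered part of the set. Between WTT and WTC, 7 of the 30 genes fell at a Benjamini-Hochberg adjusted p under 0.05 by limma, against 11.3% of all clusters, and Ly86 alone rose, against 10.2% of all clusters. A gene is said below to pass, rise or fall at this threshold by limma, unless LPE is named. The median log2 fold change was -0.56 over the members and 0.02 over all clusters, and 23 of the 30 values were below 0. In 12 genes each WTT mouse lay below each WTC mouse, as in 17.4% of all clusters. By LPE, the test with locally pooled errors that the study used, at an adjusted p under 0.01, 15 genes were lower, against 4.47% of all clusters, and Cd72 was higher. LPE pools the spread over clusters of similar intensity and not by gene. Genes that vary more than others of their intensity, such as most members, therefore pass it more easily. The 15 were the same 7 genes and Blk, Ms4a1, Cd22, Fcrla, Pax5, Spib, Pou2af1 and Ralgps2. Ms4a1, Cd22, Pax5, Spib, Pou2af1 and H2-Ob are among the genes that the study listed from these same mice for bleomycin in Fra-1+/+ lungs, so their direction is not independent evidence.

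Of the antigen receptor genes, 3 of 7 fell. Cd79a and Cd79b encode the paired signalling chains of the receptor. Cd79a was 10.95, 9.28 and 10.36 in WTC and 8.99, 8.18 and 8.74 in WTT, without overlap. It fell by 1.56 on the log2 scale (SE 0.43, 2.95-fold, adjusted p = 0.0233 by limma). Cd79b was 11.08, 9.76 and 10.62 in WTC and 9.36, 8.56 and 8.87 in WTT and also fell by 1.56 (SE 0.34, 2.94-fold, adjusted p = 0.0074). Bank1, an adaptor of receptor signalling, was 9.79, 8.26 and 9.21 in WTC and 7.97, 7.27 and 7.89 in WTT, a fall of 2.60-fold (adjusted p = 0.0359). The lowest WTC mouse, 157, came closest to the WTT mice in all 3 genes. The kinase gene Blk had a log2 fold change of -0.52 (adjusted p = 0.176) and the adaptor gene Blnk -0.10 (adjusted p = 0.869), and neither passed. Btk (0.37, adjusted p = 0.199) and Plcg2 (0.45, adjusted p = 0.104), a kinase and a phospholipase of the same pathway that myeloid cells also use, had positive values that did not pass, although the 3 WTT mice lay above the 3 WTC mice for Plcg2.

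Among surface co-receptors and inhibitors, 1 of 9 fell. Fcer2a, the low-affinity IgE receptor CD23 of mature B cells, had the lowest log2 fold change of the set. It was 9.42, 7.52 and 8.85 in WTC and 7.42, 6.31 and 6.75 in WTT, and it fell 3.41-fold (log2 fold change -1.77, SE 0.48, adjusted p = 0.0217). Ms4a1 averaged 8.75 ± 1.13 (SD, n = 3) in WTC and 7.17 ± 0.52 (SD, n = 3) in WTT, a log2 difference of -1.58 (SE 0.56, adjusted p = 0.0658). WTT 160 (7.74) lay above WTC 157 (7.63), so the groups overlapped, and the change did not pass by limma, whereas LPE called it lower (adjusted p = 4.7e-16). Cd22, an inhibitory receptor for sialic acids, had -0.86 (adjusted p = 0.1). The Fc receptor-like genes had -0.76 (Fcrl1, adjusted p = 0.213), -0.68 (Fcrla, adjusted p = 0.0863) and -0.03 (Fcrl5, adjusted p = 0.954). The inhibitory receptor Btla had -0.57 and the tetraspanin Cd37 -0.04, and Cd72, another inhibitory receptor, had 0.86 (adjusted p = 0.211 by limma) and was called higher by LPE.

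Of the 6 transcription factors 1 fell. Ebf1, which specifies the lineage, was 9.17, 8.72 and 8.99 in WTC and 8.33, 7.94 and 8.27 in WTT. It fell by 0.78 (SE 0.16, adjusted p = 0.00631), the change with the smallest SE in the set. Its mean correlation with the other members was 0.78, and which lung cells gave its values was not tested. Pax5 had -0.94 (adjusted p = 0.0624) and Pou2af1, the B cell coactivator of the octamer-binding factors, -1.07 (adjusted p = 0.0881). In both genes the groups did not overlap. Spib (-0.54), Pou2f2 (-0.18) and Bcl11a (0.00) had an adjusted p of 0.559 or more.

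The remaining roles held 2 further falls. H2-Ob encodes a chain of H2-O, which restrains peptide loading onto class II molecules. It was 10.26, 8.85 and 9.70 in WTC and 8.37, 8.07 and 7.94 in WTT and fell 2.79-fold (adjusted p = 0.0118). Its partner H2-Oa had -0.21 (adjusted p = 0.669). Vpreb3, related to the surrogate light chain, was 9.24, 8.81 and 9.03 in WTC and 8.05, 7.56 and 7.42 in WTT, and fell 2.54-fold (SE 0.24 on the log2 scale), with the smallest adjusted p of the members, 0.00272. Its SD was 0.22 in WTC, less than that of most members, and 0.33 in WTT, more than that of most members. Ralgps2, an exchange factor for Ral, had -0.59 (adjusted p = 0.0739).

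Of the 4 receptors for survival and innate signals, Ly86 alone rose, and LPE called none of them. Ly86, which encodes MD-1, the partner of Cd180 on B cells and also on macrophages and dendritic cells, was 10.14, 9.58 and 10.30 in WTC and 10.54, 11.00 and 10.54 in WTT. It rose 1.61-fold (SE 0.21 on the log2 scale, adjusted p = 0.0335 by limma). It was not called by LPE. Cd180 had 0.80 (adjusted p = 0.129), and the receptors for the survival factor BAFF had -0.45 (Tnfrsf13c, adjusted p = 0.321) and 0.12 (Tnfrsf13b, adjusted p = 0.733).

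**Figure D2:**
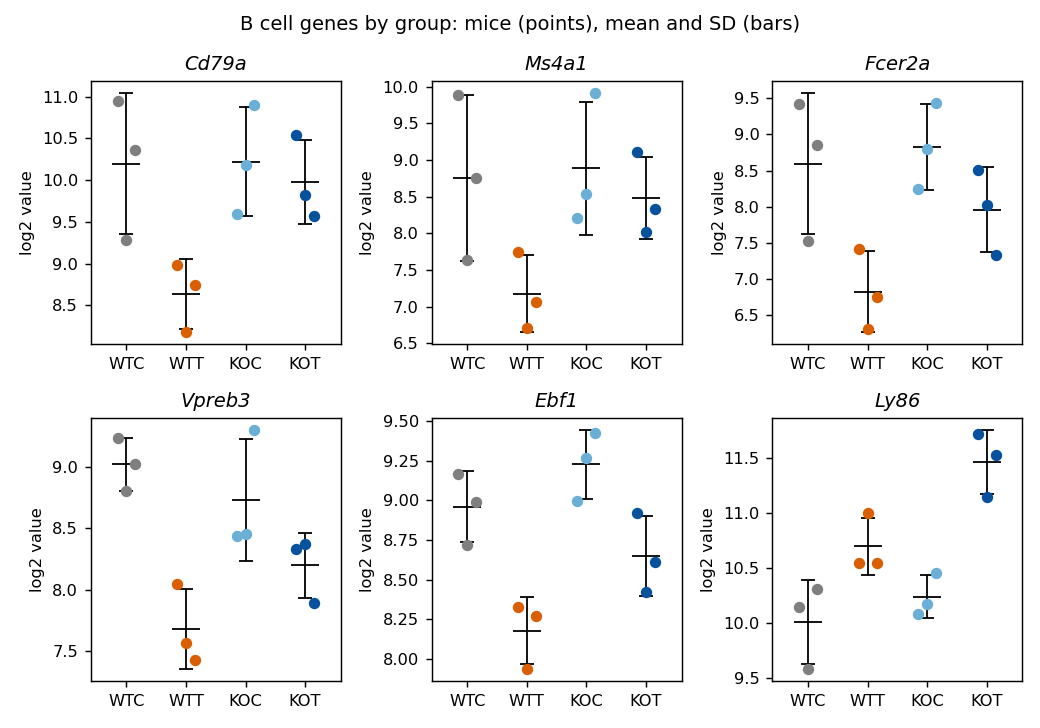
Log2 values of Cd79a, Ms4a1, Fcer2a, Vpreb3, Ebf1 and Ly86 in each mouse (points), with the mean and SD (bars) of the 3 mice of each group; the axes do not start at 0 and differ between panels. WTT is the lowest group in all panels but that of Ly86, where both bleomycin groups lie above both PBS groups and KOT, at 11.14 to 11.72, is highest.

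These counts depended on single mice. For the fits without a mouse, the share of all clusters called was not counted, so their counts cannot be set against it. Without WTT 161 or WTT 164, 4 genes passed in place of 8, without WTC 158, 5 genes, and without KOC 67, 13 genes. Ebf1, Vpreb3, Cd79b and H2-Ob passed whichever of the 12 mice was left out. Cd79a, Bank1 and Fcer2a did not pass without WTC 76, WTC 158, WTT 161 or WTT 164, nor Ly86 without WTC 157, WTT 161 or WTT 164. Without WTC 76, the Fra-1+/+ mouse with a low animal number, 4 genes fell and 3 rose (Cd72, Cd180 and Ly86), and the members' median log2 fold change was -0.27.

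Promoter sequences were compared for the members because they varied together. RefSeq entries of build GRCm38.p6 were given for 27 of the 30 genes, and the 250 bases before the start were searched on both strands. The octamer ATGCAAAT, bound by Pou2f2 with Pou2af1, was present in 2 of the 27 (Blnk and Vpreb3), against 1.81% of 27025 genes. CCCNNGGGA, after the motif of Ebf1, was found in 1 (Cd22), against 6.45% of all genes. The Ets forms GGAAGTG and GAGGAA, which can share bases, were found in 3 and 8 members, against 9.77% and 25.9% of all genes. TGANTCA, the AP-1 motif, was found in 3 (Fcrl1, Fcrl5 and Fcer2a), against 7.82%, and the E box CANCTG in 16, against 48.2%. These matches describe letters in a window, not binding. The windows of the 4 genes that fell in WTT and held an octamer, Ebf1, GGAAGTG or AP-1 match are shown in part, as the 150 bases before the start, 5′ to 3′ on the strand of the gene, with matches to any of the motifs in capitals. They were chr7:24897347-24897496 on the plus strand for Cd79a, chr3:136326067-136326216 on the minus strand for Bank1, chr8:3690862-3691011 on the minus strand for Fcer2a, which is 1 of its 3 listed starts, and chr10:75948150-75948299 on the plus strand for Vpreb3.
Cd79a: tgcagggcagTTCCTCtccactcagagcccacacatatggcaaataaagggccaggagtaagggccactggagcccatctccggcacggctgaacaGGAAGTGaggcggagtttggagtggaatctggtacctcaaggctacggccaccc
Bank1: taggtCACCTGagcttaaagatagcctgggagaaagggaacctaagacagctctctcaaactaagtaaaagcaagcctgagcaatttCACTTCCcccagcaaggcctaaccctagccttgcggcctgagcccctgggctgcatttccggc
Fcer2a: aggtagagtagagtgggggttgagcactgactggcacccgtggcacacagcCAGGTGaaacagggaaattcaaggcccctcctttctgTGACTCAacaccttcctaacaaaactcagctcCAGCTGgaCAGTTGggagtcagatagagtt
Vpreb3: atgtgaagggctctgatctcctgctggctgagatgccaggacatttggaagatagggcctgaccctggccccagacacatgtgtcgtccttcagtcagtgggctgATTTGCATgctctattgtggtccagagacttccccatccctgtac

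In Fra-1∆/∆ lungs, 3 of the 30 genes changed with bleomycin. Between KOT and KOC, Ebf1 alone fell, against 7.98% of all clusters, and Plcg2 and Ly86 rose, against 7.42% of all clusters. The median log2 fold change was -0.09 over the members and 0.02 over all clusters, with 13 values above 0 and 17 below. With arrays weighted by their quality, the median was 0.31 and 7 genes rose (Btk, Cd72, Tnfrsf13b, Cd180 and Pou2f2 beside Plcg2 and Ly86), while Ebf1 did not pass. The share of all clusters that rose with these weights was not counted, so the 7 cannot be set against it. By LPE, 6 genes passed, against 8.07% of all clusters, namely Plcg2, Cd72, Cd180 and Ly86 higher and Fcer2a and Ebf1 lower.

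Ebf1 was 8.99, 9.27 and 9.42 in KOC and 8.92, 8.42 and 8.61 in KOT, without overlap. It fell by 0.58 (SE 0.16, adjusted p = 0.0344), and here too the lung cells behind its values were not tested. Ly86 was 10.08, 10.18 and 10.45 in KOC and 11.72, 11.14 and 11.53 in KOT. It rose 2.34-fold (SE 0.21 on the log2 scale, adjusted p = 0.00281) and was the only member with each KOT mouse above each KOC mouse, as in 18.8% of all clusters. Plcg2 was 8.41, 8.48 and 9.06 in KOC and 9.46, 9.02 and 9.29 in KOT, with KOT 80 below KOC 67, and rose 1.52-fold (adjusted p = 0.0449). Ebf1 and Vpreb3 were the 2 members with each KOT mouse below each KOC mouse, as in 16.6% of all clusters, but Vpreb3 (-0.53, SE 0.24, adjusted p = 0.166) did not pass.

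Genes that were lower in WTT by limma or by LPE had values nearer to 0 here. They were chosen by their fall in Fra-1+/+ lungs, so smaller values in another comparison are not evidence of a different response. Cd79a was 9.59, 10.18 and 10.90 in KOC and 10.54, 9.82 and 9.57 in KOT, with the groups interleaved and a log2 fold change of -0.24 (SE 0.43, adjusted p = 0.768). Fcer2a was 8.25, 8.80 and 9.43 in KOC and 8.51, 8.02 and 7.34 in KOT (-0.87, SE 0.48, adjusted p = 0.264 by limma). Cd79b had -0.48, H2-Ob -0.51, Bank1 -0.28 and Ms4a1 -0.40, none of which passed by limma or by LPE. At the other end stood Cd72 (1.05, adjusted p = 0.146) and Cd180 (1.01, adjusted p = 0.0734). Only Ly86 passed whichever mouse was left out, since Ebf1 was lost without KOC 55, KOC 67, KOT 80 or KOT 81, and Plcg2 without any of 8 mice. Without KOC 55 or KOT 81, 1 gene passed in place of 3.

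**Figure D3:**
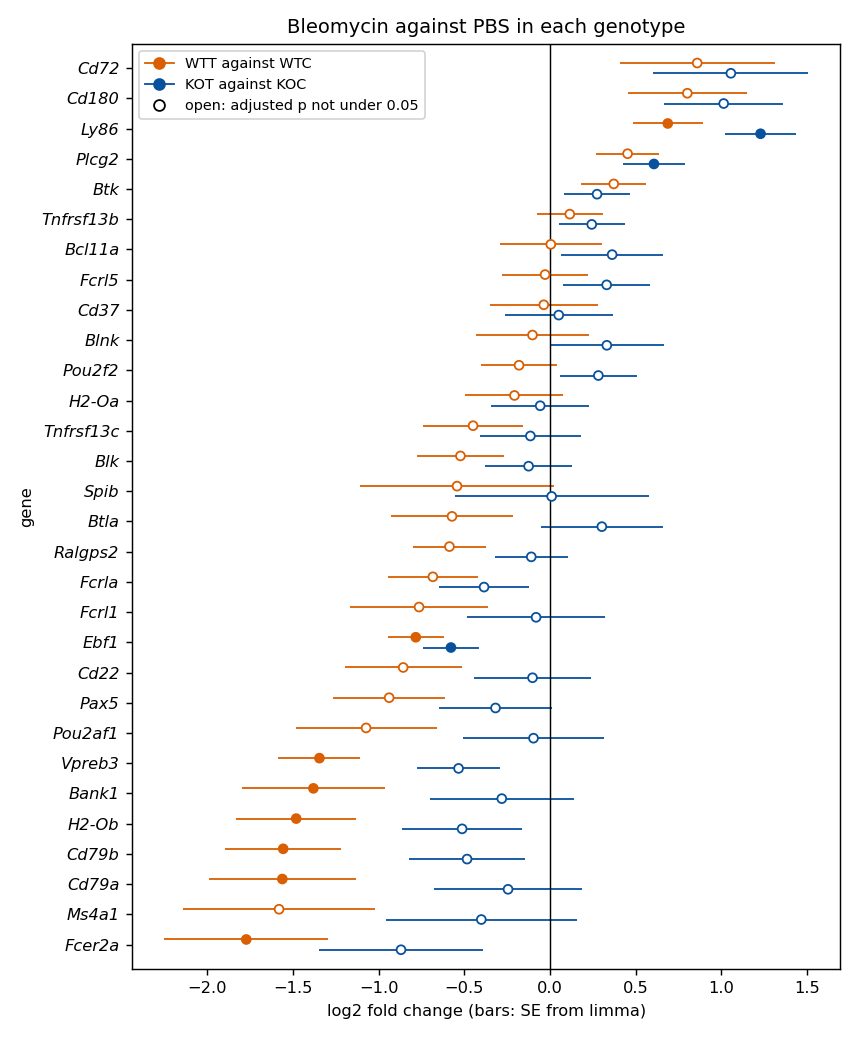
Log2 fold changes between bleomycin and PBS for the 30 B cell genes (points) with limma's SE (bars), in Fra-1+/+ (orange) and Fra-1∆/∆ (blue) lungs, ordered by the former; filled points had an adjusted p under 0.05. The 7 genes filled on the left in Fra-1+/+ lungs lie between -1.77 and -0.78, and in Fra-1∆/∆ lungs Ebf1 is the filled gene on the left.

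Between the genotypes given PBS, the members did not separate. None of the 30 genes passed between KOC and WTC by limma, against 0.0128% of all clusters. None had an unadjusted p under 0.05 either, against 9.82% of all clusters, and none passed by LPE, against 1.79%. The median was 0.02 over the members and -0.01 over all clusters, and log2 fold changes lay between -0.33 (H2-Ob) and 0.36 (Spib). The groups overlapped in all 30 genes. The intervals were wide. That of Cd79a ran from -0.91 to 0.96 and that of Ms4a1 from -1.09 to 1.35 (95% confidence), so smaller differences in these genes were not detectable. The median was 0.26 without WTC 76, -0.33 without WTC 157, 0.23 without KOC 53 and -0.27 without KOC 67. With a term for animal numbers under 100, which leaves WTC 76 as the only Fra-1+/+ mouse to compare, it was -0.61.

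Between the genotypes given bleomycin, the members lay higher in KOT, and no single gene passed by limma. Of the 30 genes, 0 had an adjusted p under 0.05, against 0.0427% of all clusters, and the smallest was 0.277 (Ly86). At an unadjusted p under 0.05 they numbered 8, all higher in KOT, against 4.27% of all clusters that were higher. In 14 genes each KOT mouse lay above each WTT mouse, as in 6.92% of all clusters. LPE called 8 genes higher, against 0.555% of all clusters, and none lower (Cd79a, Cd79b, Ms4a1, Btla, Fcer2a, Ly86, Spib and Pou2af1). The median log2 fold change was 0.50 over the members and -0.01 over all clusters, and 29 of 30 values were above 0. Because the members vary together, these counts are not 30 separate observations. Cd79a, Ms4a1, Btla, Fcer2a, Spib and Pou2af1 are among the genes the study listed from these same mice for this comparison, so their direction is not independent evidence. Other gene lists differed between KOT and WTT too, though not all of them. The median log2 fold change was 0.37 over 16 T cell genes, 0.43 over 11 dendritic cell genes, 0.24 over 18 plasma cell genes, -0.15 over 12 macrophage and monocyte genes and -0.84 over 9 neutrophil genes, with no gene of these lists passing by limma. It was 0.35 over the class II genes, of which H2-Ea passed. Over 21 other genes of B cell receptor signalling it was 0.02, near that of all clusters. For 10 lung identity genes it was 0.03, for 10 proliferation genes 0.04 and for 18 homing and survival genes 0.26. Each KOT mouse had a higher mean level than each WTT mouse for the T cell list (7.70 to 7.95 against 7.22 to 7.67), the dendritic cell list (8.43 to 8.56 against 7.98 to 8.20) and the plasma cell list (8.89 to 9.05 against 8.33 to 8.41), while the neutrophil list overlapped. Their part in the B cell values was not tested.

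Cd79a had the highest value. The WTT mice lay between 8.18 and 8.99 and the KOT mice between 9.57 and 10.54, a log2 fold change of 1.34 (SE 0.43, 2.53-fold, adjusted p = 0.332 by limma). Cd79b followed the same pattern, with KOT mice at 10.33, 9.89 and 9.67 against WTT mice at 9.36, 8.56 and 8.87 (1.03, adjusted p = 0.336). Pou2af1 was 7.59, 7.54 and 7.70 in WTT and 9.18, 8.52 and 8.66 in KOT, a difference of 1.18 (SE 0.41, adjusted p = 0.365) between groups that lay well apart. Ms4a1 was 7.74, 6.71 and 7.07 in WTT and 9.11, 8.02 and 8.33 in KOT (1.31, SE 0.56, adjusted p = 0.441). In these 4 genes the WTT and KOT mice did not overlap. Fcer2a (1.13, adjusted p = 0.439) did overlap, with KOT 81 (7.34) below WTT 160 (7.42).

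Ly86 and Ebf1 passed an unadjusted 0.05 with less spread. Ly86 was 0.77 higher in KOT (SE 0.21, adjusted p = 0.277) and Ebf1 0.47 higher (SE 0.16, adjusted p = 0.359), and Bank1 was 0.99 higher (SE 0.42, adjusted p = 0.439). Spib (0.91), Btla (0.76), Pax5 (0.64), H2-Ob (0.64), Cd22 (0.64), Fcrla (0.50) and Tnfrsf13c (0.49) had larger SE for their size, and their adjusted p lay between 0.482 and 0.601, although the mice did not overlap. The smallest values were those of Btk (0.00), Plcg2 (0.07) and Cd180 (0.07). With KOT 72 left out, the mouse with the highest values of its group, the median over the members was 0.33, and without KOT 80 it was 0.61.

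**Figure D4:**
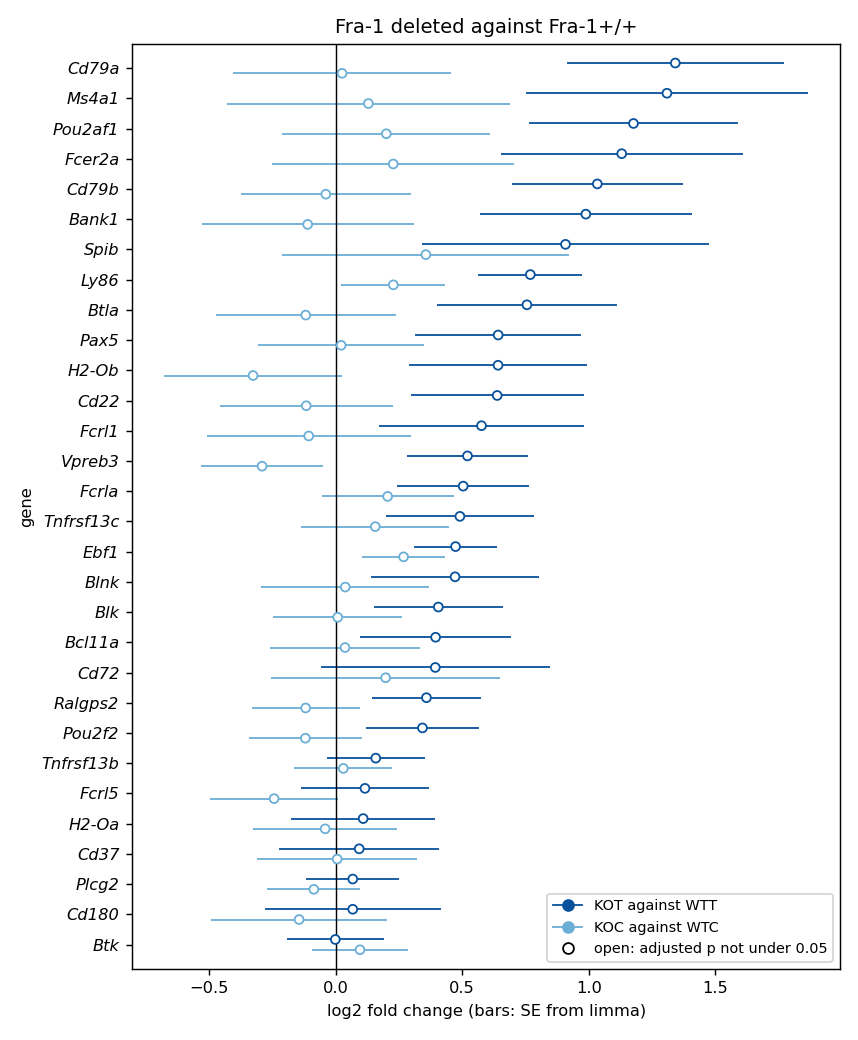
Log2 fold changes between Fra-1∆/∆ and Fra-1+/+ lungs for the 30 B cell genes (points) with limma's SE (bars), after bleomycin (dark blue) and after PBS (light blue), ordered by the former; all points are open because no adjusted p was under 0.05. After bleomycin the points run up to 1.34 (Cd79a), while after PBS they lie between -0.33 and 0.36.

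Whether bleomycin changed the members differently in the 2 genotypes was tested directly as an interaction, in which the log2 fold change of WTT against WTC is subtracted from that of KOT against KOC. None of the 30 genes passed by limma, and none of all clusters (0%). The smallest adjusted p of a member was 0.963, and 2 members, Cd79b (1.07, SE 0.48) and Vpreb3 (0.81, SE 0.34), had an unadjusted p under 0.05, both higher, against 2.99% of all clusters. LPE compares 2 groups and gives no such test. The median was 0.47 over the members and -0.01 over all clusters, and 29 of 30 values were above 0. With a median SE of 0.45, the 95% interval of Cd79a ran from -0.01 to 2.64 and that of Ms4a1 from -0.55 to 2.91. It is therefore not shown that the members responded differently in the 2 genotypes. KOC and WTC values enter this difference as well, and its median was 0.23 without WTC 76 or without KOC 53 and 0.73 without WTC 157.

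Other genes of B cell receptor signalling were taken from a list of 24, of which 21 had a cluster. In WTT against WTC 6 rose and 2 fell, and in KOT against KOC 7 rose and 2 fell. Those that rose in both genotypes were the exchange factor gene Vav1 (1.08 and 1.11 as log2 fold changes in Fra-1+/+ and Fra-1∆/∆ lungs), the inhibitory Fc receptor gene Fcgr2b (1.44 and 1.50), the phosphatase gene Inpp5d (0.54 and 0.51) and the adaptor genes Sh3bp2 (1.00 and 1.10) and Lat2 (0.92 and 0.98), all of which myeloid cells also express. Rasgrp3 (-0.85 and -1.05) and Swap70 (-0.43 and -0.40), which take part in B cell activation, fell in both. Which lung cells gave these values was not tested. Cr2, the complement receptor of mature B cells, lay between 6.44 and 8.46 in WTC and between 5.79 and 6.92 in WTT, and its difference of -1.11 did not pass by limma (adjusted p = 0.226) but was called lower by LPE (adjusted p = 2.3e-06), and the study listed it from these mice. Between genotypes none of the 21 passed by limma with either treatment. Their median log2 fold change between KOT and WTT was 0.02, against 0.50 over the members. Their mean deviations put the mice in the same order as the members did in WTC (0.09 in WTC 76, -0.12 in WTC 158 and -0.38 in WTC 157), in KOC and in KOT, but not in WTT.

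Signals that position B cells and keep them alive were measured by 18 of 21 listed genes. Cxcl13, the chemokine that draws B cells into follicles, was 11.66, 8.93 and 9.17 in WTC and 11.54, 12.40 and 12.62 in WTT, a log2 fold change of 2.27 (SE 0.72, adjusted p = 0.0443), with WTC 76 within the WTT range. In KOC it was 9.92, 9.72 and 11.56 and in KOT 12.69, 11.38 and 13.21 (2.03, adjusted p = 0.0845 by limma), and LPE called this difference too. Its receptor gene Cxcr5 had -1.18 in WTT against WTC (adjusted p = 0.0565 by limma, called lower by LPE) without overlap, and -0.30 in KOT against KOC. WTC 76 and KOC 67, the mice with the highest B cell genes in their groups, also had the highest Cxcl13 and Cxcr5 of their groups. After bleomycin the Cxcl13 order differed, with KOT 72 (12.69) below KOT 81 (13.21) and WTT 160 (11.54) the lowest of its group. Tnfsf13b, which encodes BAFF, rose by 0.39 in KOT against KOC (adjusted p = 0.0332) and had -0.03 in WTT against WTC. Ltbr and Cxcl12 rose and Cxcr4 fell in both genotypes.

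Few genes of plasma cells, the antibody-secreting descendants of B cells, passed. Of 18 measured, Jchain and Tent5c fell and Edem1 rose in WTT against WTC, and in KOT against KOC Slamf7 rose and Tent5c fell. Jchain, the joining chain of secreted IgM and IgA, was 11.81, 10.44 and 9.02 in WTC and 6.90, 6.85 and 7.53 in WTT, a log2 fold change of -3.33 (SE 0.66, adjusted p = 0.00461). In KOC it was 10.06, 9.92 and 12.11 and in KOT 11.37, 11.01 and 10.74 (0.34, adjusted p = 0.789 by limma, called by LPE). KOT lay above WTT by 3.95 (adjusted p = 0.0918), and the interaction of 3.67 had an adjusted p of 0.845, so that neither passed by limma, whereas LPE called Jchain higher in KOT than in WTT (adjusted p = 4.5e-96). Jchain too is a gene the study listed from these mice, so its direction is not independent evidence.

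Markers of other cell types moved with the same comparisons. Of 12 macrophage and monocyte genes, 11 rose and Lyz2 fell in WTT against WTC, and 10 rose and Lyz2 fell in KOT against KOC. Their mean level lay between 8.72 and 8.97 in WTC, 9.83 and 10.27 in WTT, 8.78 and 8.91 in KOC, and 9.61 and 10.23 in KOT. Of their defining markers, Csf1r and Cd68 rose and Lyz2 fell in both genotypes. In the PBS lungs these markers were present too, with Csf1r at 9.94 or higher and Cd68 at 10.37 or higher. The part of these cells in the values of Ly86, Cd180, Cd72, Plcg2 and Btk was not tested. Of 16 T cell genes none rose, and Cd2 alone fell in WTT against WTC by limma. Their mean level lay between 7.20 and 8.25 in WTC, 7.22 and 7.67 in WTT, 7.53 and 8.03 in KOC, and 7.70 and 7.95 in KOT. WTC 76, KOC 67 and KOT 72 were the highest of their groups in the T cell list and in the plasma cell list as well, and WTC 157 the lowest of its group in the T cell list. The part in the B cell values of how much lymphoid tissue each lung sample held was not tested.

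**Figure D5:**
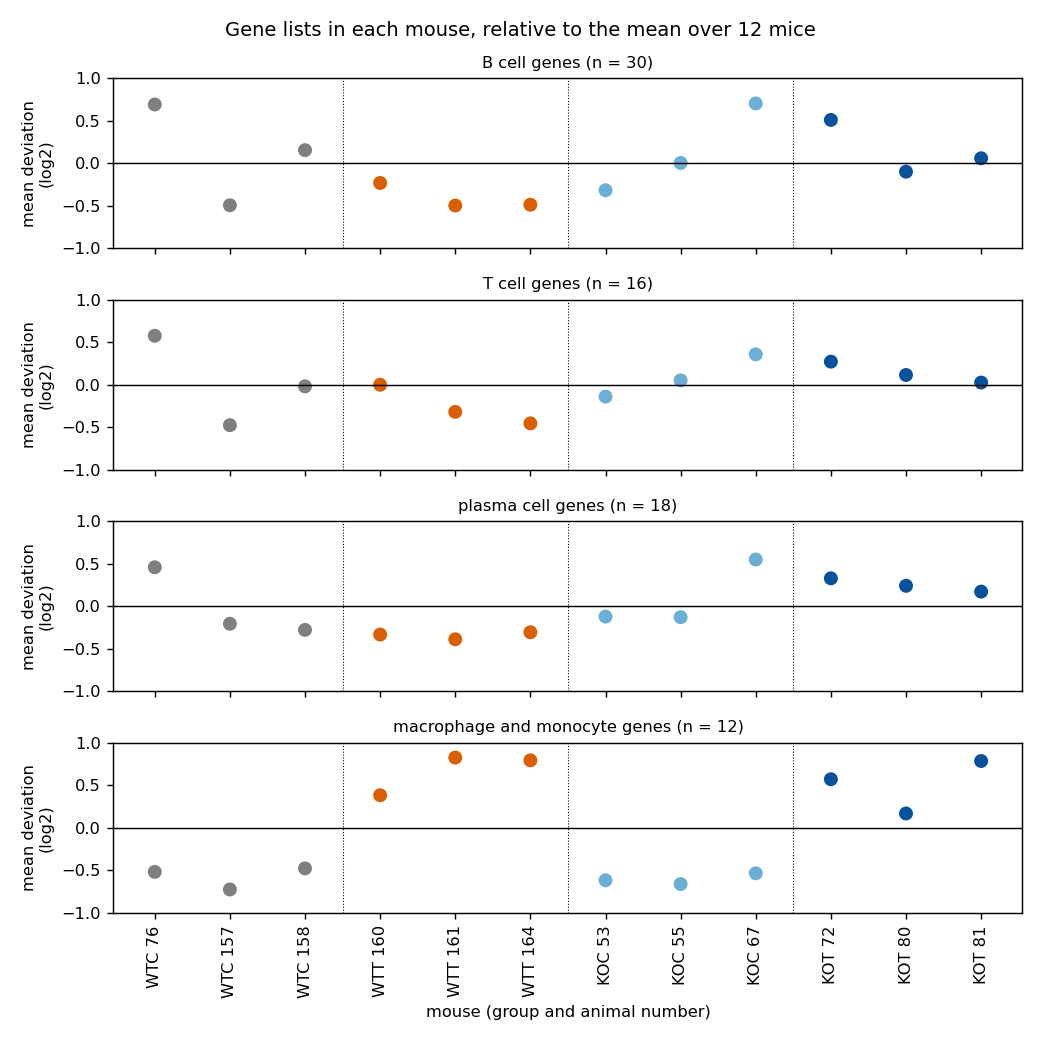
Mean log2 deviation from the mean over the 12 mice, for 30 B cell, 16 T cell, 18 plasma cell and 12 macrophage and monocyte genes, with 1 point per mouse and groups set apart by dotted lines. The mice WTC 76, KOC 67 and KOT 72 are highest of their groups in the first 3 panels, whereas the macrophage and monocyte panel separates bleomycin from PBS in both genotypes.

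A gene next to members of the set marked the genotypes. H2-Ea, a class II gene of the region that also holds H2-Oa and H2-Ob, lay between 5.20 and 6.01 in the 6 Fra-1+/+ mice and between 11.34 and 11.80 in the 6 Fra-1∆/∆ mice (adjusted p under 0.05 by limma with either treatment). It is not expressed by mice of the H2-b haplotype. The background that the labels give is the same for both genotypes and does not show this difference. The part of strain background in the differences of H2-Oa, H2-Ob or other members between genotypes therefore cannot be told apart from that of Fra-1.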

How the data were processed

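The authors hybridized left lung RNA of 12 mice to MoGene 1.0ST v1 arrays, brought the probe signals of the arrays to common quantiles and computed a value per transcript cluster by RMA (median polish) with Affymetrix Power Tools (version not given in the sources used here). They deposited these values on the log2 scale. Quantile normalization gives all arrays the same distribution, so values are relative to the other genes of an array. Of 35556 clusters, 23410 carry a gene symbol and were tested, and members were taken from the 21789 with 1 symbol. Groups came from the labels, and all arrays were used without further normalization.

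Group means were fitted in R 4.3.3 by limma 3.58.1 and statmod 1.5.0, using moderated variances, 8 residual degrees of freedom and two-sided p adjusted over 23410 clusters. SE therefore also hold the spread of the other groups. LPE was written anew with 100 bins and a spline of 10 degrees of freedom, and works on group medians. An exact two-sided test of 3 mice against 3 cannot go below 0.1. The fits were tested on simulated data. Precision is limited by the number of arrays.

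As alternatives, results were recomputed with LPE, an adjusted p under 0.01, weights for arrays, cyclic loess, array medians set equal, trended moderation with robust variances, a filter on clusters (a group mean of 6 or more), adjustment over all clusters, a term for animal number, the 6 arrays compared, and leaving out each mouse. All members with a cluster are named, with other genes by rule (up to 4 of each list by smallest p, and its defining markers), and a few named to complete a count were chosen after their values were seen. The members and lists were chosen with earlier results of these data known. Promoters came from RefSeq (GRCm38.p6), which had no entry here for 3 members. The build behind the arrays' annotation is not given in the sources used here, so no other coordinates are printed.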

Additional observations from a re-analysis of the deposited data

Results flagged for a closer look

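Btla, an inhibitory receptor of B and T cells, drew attention because the mice given bleomycin lay on opposite sides of their PBS means in the 2 genotypes. Neither difference passed by limma, at -0.57 (adjusted p = 0.295) in Fra-1+/+ and 0.30 (adjusted p = 0.64) in Fra-1∆/∆ lungs. The WTT mice lay 0.78 to 0.35 below the WTC mean (8.31), as deviations of -0.78 to -0.35, and the KOT mice lay 0.07 to 0.50 above the KOC mean (8.19), all on the log2 scale. The difference between the responses was 0.87 (0.8739 before rounding, SE 0.50), and as an interaction it did not pass (adjusted p = 0.963 by limma). The groups overlapped in both genotypes, with WTT 160 (7.96) above WTC 157 (7.80). The 3 KOT mice lay within the KOC range, which ran from 7.55 (KOC 53) to 9.01 (KOC 67).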

How the results depend on the processing

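No paired analysis was possible because animal numbers are not shared between groups. The count of members called between WTT and WTC, 8 in all, was 3 at an adjusted p under 0.01 and 16 by LPE, and ran from 4 to 13 when 1 mouse was left out. For KOT against KOC, 3 in all, it was 1 at an adjusted p under 0.01, 1 with adjustment over all 35556 clusters, 7 with array weights, all higher, and 6 by LPE, and from 1 to 4 when 1 mouse was left out. For KOT against WTT the count of 0 became 8 by LPE and was 0 without any 1 mouse. For KOC against WTC and for the interaction it was 0 in all fits run. Shares of all clusters were counted for the limma fit given in the Results and for LPE, not for the other alternatives. The animal number term could be fitted only for KOC against WTC. Over single genes, 0 results reversed, 44 calls were lost, 44 were gained, 26 uncalled values moved by more than the within-group SD, nearly all with the animal number term, and 3006 did neither. Array weights gave a median of 0.31 for KOT against KOC, in place of -0.09, and 0.67 for KOT against WTT, in place of 0.50. The cause was not tested. Averaging several clusters of a gene was not run because no member had more than 1. Cyclic loess and equal array medians moved the median of all genes by less than 0.1 and changed no call of a member.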

Other observations

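Other gene lists set the scale of the bleomycin response in the same lungs. Of 10 proliferation genes, 8 rose in WTT against WTC and 10 in KOT against KOC, with medians of 0.92 and 0.98 on the log2 scale. Of 11 dendritic cell genes, Flt3 and Batf3 rose and Clec9a and Cd209a fell in WTT against WTC, while 7 rose and none fell in KOT against KOC by limma. Of 9 neutrophil genes, Mmp8 and Ngp rose in WTT against WTC and Mmp8 in KOT against KOC. Of 10 lung identity genes, 6 fell in Fra-1+/+ and 5 in Fra-1∆/∆ lungs and Col1a1 rose in both. Of 7 class II genes, H2-Ea alone passed, in both comparisons of genotypes.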
